A study of Rattus norvegicus with 12 samples.

Results

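The genes described here are the receptors that bind glucocorticoids and mineralocorticoids in rodent tissue, genes known to be switched on by them, and the enzyme that regenerates the active hormone inside cells. They were chosen by symbol in the deposited table of raw counts, from 8 names: Nr3c1, Nr3c2, Fkbp5, Sgk1, Tsc22d3, Klf9, Ddit4 and Hsd11b1. Of these, 7 were analysed, out of 22050 genes with a symbol among 31177 rows. All 7 had enough counts to be tested, as did 18850 rows in all. Nr3c1, the glucocorticoid receptor, was not analysed here.

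Brain RNA was sequenced in 12 libraries, 4 for each of 3 groups. The controls carry the name Sham, the second group is an Alzheimer's disease model (AD), and in the third the same model was joined to a high-fat diet (AD-HFD). Expression was compared to follow what the disease model and metabolic stress change. The sources used here do not give how the model was made, what the Sham procedure was, the strain, the age, the sex, the brain region or the length of the diet, and animals on the diet without the disease model were not analysed here. The labels speak of mice, while the organism field says rat and the table carries rat Ensembl identifiers, so the symbols are treated as rat genes. A library is written as its group and number, for example AD-3. Levels are CPM, that is, counts normalised to the size of each library, and differences are log2 fold changes ± standard error (SE). A gene is said to have risen or fallen where its p-value, adjusted over all 18850 rows, was under 0.05 in edgeR's quasi-likelihood test.

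Glucocorticoids are adrenal steroid hormones released under stress and through the day. They enter cells and bind a pair of related receptors, the glucocorticoid receptor and the mineralocorticoid receptor, which sit in the cytoplasm with heat shock proteins until the hormone binds, then move to the nucleus and act on genes that carry glucocorticoid response elements. In brain the mineralocorticoid receptor is best known from hippocampal neurons, and the target genes are active in neurons, glia and blood vessels alike. The high-affinity element is a palindrome of a 6-letter repeat with a 3-letter spacer.

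RefSeq promoter windows of the rat build GRCr8, each covering 250 bases before an annotated start and 50 after it, were found for 5 of the 7 genes (Fkbp5, Sgk1, Tsc22d3, Klf9 and Ddit4), in 9 windows. Below are the bases before the start for Sgk1, which has 3 annotated starts, and for Ddit4, because these were the 2 genes that rose in AD-HFD versus Sham. They are written 5′ to 3′ along the gene's strand, and capitals mark the core of the TATA box (TATAAA) and the core of the GC box, which reads GGGCGG along the gene and as CCGCCC where it lies on the opposite strand.
Sgk1, start 1, chr1:24804832-24805081, minus strand: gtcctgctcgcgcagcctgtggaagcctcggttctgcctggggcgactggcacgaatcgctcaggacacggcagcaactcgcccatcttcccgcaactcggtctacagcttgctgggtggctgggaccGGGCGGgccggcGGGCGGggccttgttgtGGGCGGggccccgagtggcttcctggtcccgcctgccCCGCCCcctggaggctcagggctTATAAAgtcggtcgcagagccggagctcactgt
Sgk1, start 2, chr1:24805571-24805820, minus strand: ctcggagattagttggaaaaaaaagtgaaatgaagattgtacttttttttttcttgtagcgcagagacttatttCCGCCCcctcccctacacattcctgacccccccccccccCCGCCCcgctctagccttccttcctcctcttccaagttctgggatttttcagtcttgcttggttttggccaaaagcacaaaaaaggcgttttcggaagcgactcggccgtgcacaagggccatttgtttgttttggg
Sgk1, start 3, chr1:24807232-24807481, minus strand: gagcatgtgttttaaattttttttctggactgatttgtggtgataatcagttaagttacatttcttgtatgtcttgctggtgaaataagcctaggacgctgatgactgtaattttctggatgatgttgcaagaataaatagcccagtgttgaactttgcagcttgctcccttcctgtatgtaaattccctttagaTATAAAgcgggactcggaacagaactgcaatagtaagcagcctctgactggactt
Ddit4, chr20:28437038-28437287, minus strand: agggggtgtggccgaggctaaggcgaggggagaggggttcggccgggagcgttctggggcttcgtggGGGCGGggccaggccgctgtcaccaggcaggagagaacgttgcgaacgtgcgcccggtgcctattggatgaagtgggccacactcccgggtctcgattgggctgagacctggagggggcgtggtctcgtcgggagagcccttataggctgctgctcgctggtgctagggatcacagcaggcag

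The first Sgk1 window held TATAAA at -33 to -28, where -1 is the base just before the start, and 4 GC boxes between -122 and -51. The third Sgk1 window held TATAAA at -55 to -50 and no GC box, the second held 2 GC boxes and no TATAAA, and Ddit4 held 1 GC box at -183 to -178. Among the 9 windows, TATAAA was in 3 and GGGCGG in 6, against 14.2% and 33.1% of all 33469 windows of that length. The palindromic element (AGAACA, any 3 letters, then TGTTCT) was in 0 of the 9 and in 0.0149% of all windows (5 of 33469). Its repeat AGAACA, read on both strands (TGTTCT on the other), was also in 0 of the 9, against 20.7% of all windows, and a window with the full element counts for the repeat as well. No match says only that these letters are not in this window, and the deposited counts do not show which start was used.

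The libraries differed in the mixture of brain tissue they held, within groups as well as between them. The summed level of 10 cerebral cortex markers (Slc17a7 and Neurod6 first among them) ran from 2405 to 2906 CPM in Sham, was 286, 103, 1307 and 185 CPM in AD-1 to AD-4, and 553, 824, 2029 and 492 CPM over AD-HFD-1 to AD-HFD-4. Thalamus markers (8 genes) summed to 1896, 447, 140 and 1229 CPM in AD-1 to AD-4, with 57.3 to 128 CPM in the Sham libraries. AD-HFD-3 stood apart from the other AD-HFD libraries, with the most hippocampus marker signal of all 12 (721 CPM over 5 genes), 7179 CPM of general neuron markers against 1669 to 3315 CPM, and 6752 CPM of oligodendrocyte markers against 30009 to 48486 CPM. AD-HFD-4 held the most red blood cell signal (4224 CPM over 6 genes) and the most endothelial signal (1478 CPM over 5 genes). Choroid plexus markers (8 genes, Ttr first) summed to 2.92, 4663, 4555 and 8.47 CPM in Sham-1 to Sham-4, to 8.05 to 23.6 CPM across AD, and to 10510, 558, 31.5 and 23.1 CPM over AD-HFD-1 to AD-HFD-4, so Sham and AD-HFD each held libraries with and without this tissue. In bulk tissue, fewer cells of a type and less RNA per cell cannot be told apart. Some fits below add the mean log2 CPM of a marker list as a covariate. The cortex mean was 6.45 to 6.78 in Sham, 1.42 to 5.36 in AD and 3.86 to 6.22 in AD-HFD. AD and AD-HFD each fell outside the Sham range, so cortex-adjusted values against Sham are extrapolated. They cannot separate a group difference from a mixture difference. The red blood cell mean was 2.25 to 3.27 in Sham, 3.07 to 4.13 in AD and 2.89 to 6.81 in AD-HFD. It was above the Sham range in AD-HFD-1 (4.91), AD-HFD-2 (4.45) and AD-HFD-4 (6.81). Values of AD-HFD versus Sham adjusted for it are thus extrapolated in large part, and carry the same limit. Results below are also given without AD-3 and AD-HFD-3, the cortex-rich libraries of their groups, a choice made after the data were seen. This does not even out the mixture, since in each group it removes the library whose cortex sum was nearest to Sham. What remains is 103 to 286 CPM in AD, 492 to 824 CPM in AD-HFD and 2405 to 2906 CPM in Sham, with no overlap. Differences in that fit cannot be told apart from cortex content. Leaving out the pair raised the calls over all genes too, to 3875 in AD versus Sham, 8630 in AD-HFD versus AD and 10245 in AD-HFD versus Sham, of 19134 genes tested. Every count or pass without the pair below is to be read against these. In the same order, leaving out AD-3 alone gave 2329, 5841 and 7614 calls of 19278 genes tested. AD-HFD-3 left out alone gave 2270, 5321 and 8615 of 19305. Passes of single genes in those fits are to be read against these shares too.

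In AD versus Sham, none of the 7 genes passed the test at an adjusted p under 0.05, where 6.23% of all genes tested passed (3.07% higher and 3.16% lower). At an unadjusted p under 0.05, 1 was higher (Ddit4) and 1 lower (Nr3c2), against 13.3% and 10.7% of all genes in those directions and 24% in either. DESeq2 also called 0 of the 7. The groups did not overlap for 3 genes, Sgk1 and Ddit4 higher and Nr3c2 lower in AD, against 21.6% of all genes (10.3% higher and 11.3% lower). In AD-HFD versus AD, 0 of 7 passed, and 1 (Sgk1, higher) had an unadjusted p under 0.05, where 0.0106% of all genes (2 genes) passed and 30.5% had an unadjusted p under 0.05 (17.1% higher and 13.4% lower). DESeq2 called 0 of the 7 here too, and no gene of the 7 had groups that did not overlap, against 5.46% of all genes (2.72% higher and 2.74% lower). In AD-HFD versus Sham, 2 of 7 rose (Sgk1 and Ddit4) and 0 fell, where 32.7% of all genes passed (19.7% higher and 12.9% lower). Nr3c2 was lower at an unadjusted p under 0.05, which 45.4% of all genes reached (25.8% higher and 19.6% lower). All 7 genes overlapped between AD-HFD and Sham, whereas 35.1% of all genes did not (18.9% higher and 16.2% lower). The share called is close to the background, so the number of calls is not a result about these genes. The median log2 fold change of the 7 was 0.19, 0.29 and 0.27 in the 3 comparisons, in that order, against 0.06, 0.04 and 0.03 over all genes tested. The comparisons share libraries, so these values are set side by side and are not independent.

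**Figure D1:**
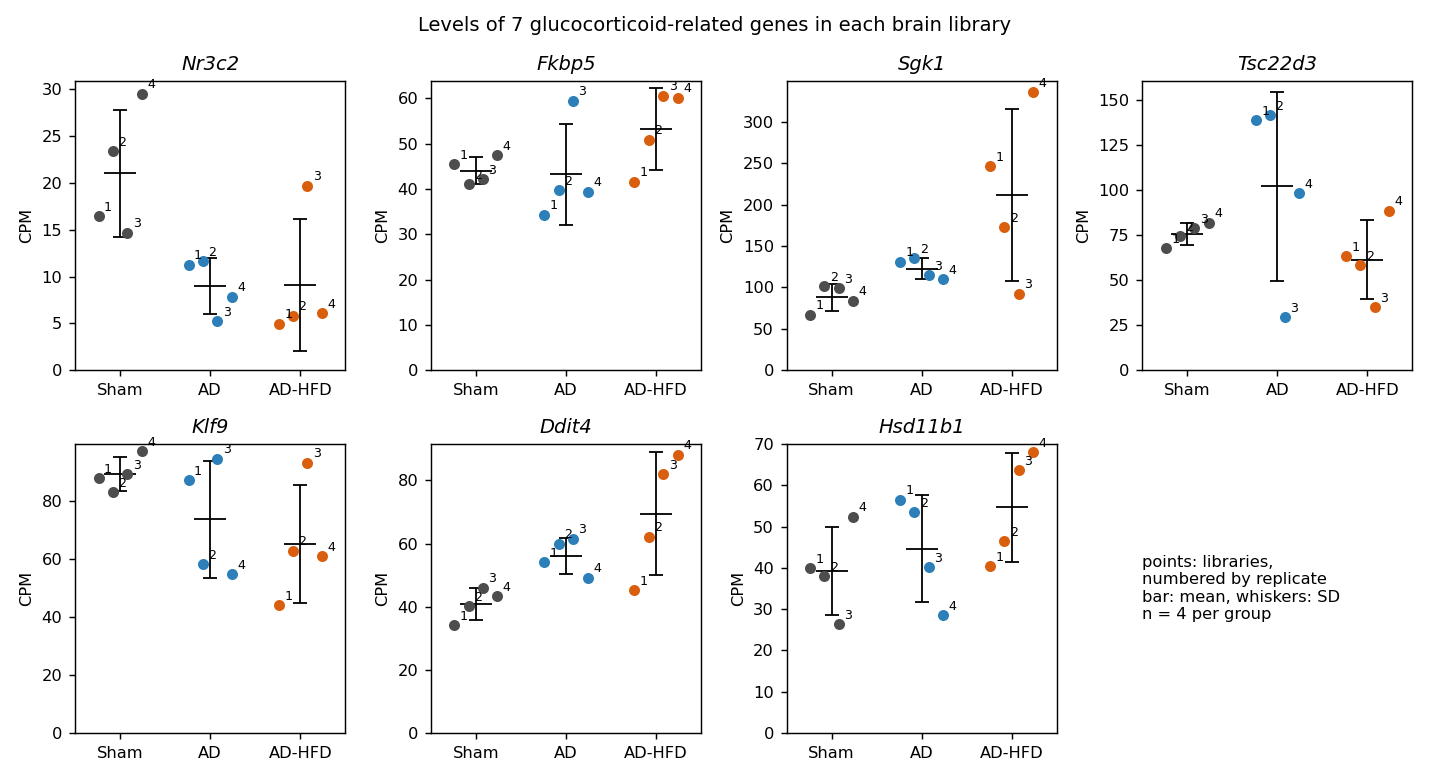
Level of each of the 7 genes in every library (CPM, y axis) by group (x axis), with points numbered by replicate, bars for the mean and whiskers for the SD (n = 4 per group). Nr3c2 in AD-HFD-3, at 19.7 CPM, sits apart from the other AD-HFD libraries, and Sgk1 and Ddit4 are above all Sham libraries in every AD library.

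Nr3c2, the mineralocorticoid receptor, had the widest range of the 7 over the libraries, 5.94-fold from lowest to highest. It stood at 16.4, 23.4, 14.7 and 29.5 CPM in Sham-1 to Sham-4, at 11.3, 11.6, 5.23 and 7.84 CPM over AD-1 to AD-4, and at 4.96, 5.80, 19.7 and 6.09 CPM over AD-HFD-1 to AD-HFD-4. All 4 AD libraries and 3 of the 4 AD-HFD libraries were below every Sham library, and AD-HFD-3 lay within the Sham range. The order of the group means was Sham (21.0 ± 6.79 CPM), AD-HFD (9.14 ± 7.06 CPM) and AD (8.98 ± 3.03 CPM; SD, n = 4 each), and the last pair did not differ beyond their spread.

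The log2 fold change of Nr3c2 in AD versus Sham was -1.22 ± 0.443 (2.34 times lower) with an adjusted p of 0.118. In AD-HFD versus Sham it was -1.20 ± 0.442 with an adjusted p of 0.0551, and in AD-HFD versus AD 0.03 ± 0.443 (95% interval -0.84 to 0.89). These values depended on AD-HFD-3. Without that library, the AD-HFD versus Sham value was -1.90 with an adjusted p of 0.00108, the AD versus Sham value stayed at -1.22 with an adjusted p of 0.0216, and AD-HFD versus AD became -0.68 (adjusted p = 0.133). Without both AD-3 and AD-HFD-3, Nr3c2 was lower in all 3 comparisons, by -1.05 in AD versus Sham, -1.98 in AD-HFD versus Sham and -0.93 in AD-HFD versus AD (adjusted p 0.0162, 0.000219 and 0.0213). It was also called in AD-HFD versus Sham without AD-3 (adjusted p = 0.0443), by DESeq2 (adjusted p = 0.0260) and by limma voom (adjusted p = 0.0259). AD-HFD-3 is also the library with the highest hippocampus marker signal and with neuron markers nearest to Sham. The part of tissue mixture in the Nr3c2 values was not tested beyond the covariates, and the cortex mean of AD did not overlap that of Sham. With the cortex marker mean as a covariate the AD versus Sham value was -0.82 (adjusted p = 0.678), and with the red blood cell marker mean the AD-HFD versus Sham value was -0.49 (adjusted p = 0.697).

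Hsd11b1 encodes the enzyme that turns inactive 11-keto steroids back into active glucocorticoid within cells. It stood at 39.8, 38.0, 26.4 and 52.4 CPM across Sham, at 56.5, 53.5, 40.2 and 28.6 CPM across AD, and at 40.5, 46.4, 63.7 and 68.0 CPM in AD-HFD, in replicate order. The groups overlapped throughout, with 2 AD and 2 AD-HFD libraries above the highest Sham library. Group means were, in ascending order, Sham (39.1 ± 10.7 CPM), AD (44.7 ± 12.9 CPM) and AD-HFD (54.6 ± 13.3 CPM; SD, n = 4), and no neighbours in that order differed beyond their spread. The log2 fold changes were 0.19 ± 0.262, 0.29 ± 0.261 and 0.48 ± 0.262 for AD versus Sham, AD-HFD versus AD and AD-HFD versus Sham (adjusted p 0.696, 0.469 and 0.171). The last has a 95% interval of -0.03 to 0.99, and was 0.32 (adjusted p = 0.374) without AD-3 and AD-HFD-3.

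Fkbp5 encodes a co-chaperone that binds the receptor complex, lowers its affinity for hormone and is itself induced by glucocorticoids, which closes a feedback loop. Its level was 45.5, 41.1, 42.1 and 47.5 CPM in Sham, 34.4, 39.7, 59.5 and 39.4 CPM in AD, and 41.6, 50.9, 60.6 and 60.2 CPM in AD-HFD. In AD, 3 libraries lay below every Sham library and AD-3 lay above all of them, so the group mean (43.2 ± 11.1 CPM) equalled that of Sham (44.1 ± 2.97 CPM) within its spread, and AD-HFD averaged 53.3 ± 9.01 CPM (SD, n = 4). The log2 fold change was -0.03 ± 0.183 in AD versus Sham (95% interval -0.39 to 0.33), 0.30 ± 0.183 in AD-HFD versus AD (adjusted p = 0.280) and 0.27 ± 0.183 in AD-HFD versus Sham (adjusted p = 0.259). Without AD-3, Fkbp5 was higher in AD-HFD than in AD by 0.49 ± 0.150 (adjusted p = 0.0297), and without AD-3 and AD-HFD-3 by 0.36 (adjusted p = 0.0723). With the cortex marker mean as a covariate, Fkbp5 was higher in AD-HFD than in Sham by 0.55 (adjusted p = 0.0375).

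Sgk1 encodes a serum- and glucocorticoid-regulated kinase that acts on ion channels and transporters, and it is a direct target of both receptors. It stood at 67.1, 102, 99.3 and 83.7 CPM in Sham-1 to Sham-4, at 131, 135, 115 and 110 CPM over AD-1 to AD-4, and at 246, 173, 92.1 and 336 CPM over AD-HFD-1 to AD-HFD-4. Every AD library was above every Sham library, whereas in AD-HFD 3 libraries were above all AD libraries and AD-HFD-3 lay within the Sham range. The means were 87.9 ± 16.0 CPM in Sham, 123 ± 12.4 CPM in AD and 212 ± 104 CPM in AD-HFD (SD, n = 4).

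The rise of Sgk1 in AD-HFD versus Sham was 1.27 ± 0.309 on the log2 scale (2.41-fold, adjusted p = 0.0113), seen in 3 of 4 AD-HFD libraries. It was called in each fit that left out 1 library, from 0.96 without AD-HFD-4 to 1.51 without AD-HFD-3. The differences of 0.48 ± 0.305 in AD versus Sham (adjusted p = 0.366) and 0.79 ± 0.306 in AD-HFD versus AD (adjusted p = 0.115) did not pass. The latter was called without AD-HFD-3 (1.03, adjusted p = 0.00868) and was 0.47 without AD-HFD-4. Without AD-3 and AD-HFD-3, Sgk1 was higher by 1.44 in AD-HFD versus Sham and by 0.94 in AD-HFD versus AD (adjusted p 0.000331 and 0.00793). Among the AD-HFD libraries, Sgk1 had the same order as the oligodendrocyte markers (32102, 30009, 6752 and 48486 CPM over AD-HFD-1 to AD-HFD-4), the red blood cell markers (1142, 801, 255 and 4224 CPM) and the endothelial markers (545, 280, 184 and 1478 CPM). The microglia (516, 457, 369 and 582 CPM) and leptomeninges markers (537, 426, 164 and 1136 CPM) had that order too. General neuron markers had the reverse (2590, 3315, 7179 and 1669 CPM), so the order is not particular to any 1 cell type. With the red blood cell mean as a covariate, Sgk1 in AD-HFD versus Sham was 0.21 (adjusted p = 0.768), and with the cortex mean 0.79 (adjusted p = 0.101). Both covariates lay outside the Sham range in AD-HFD-1, AD-HFD-2 and AD-HFD-4, so these values cannot separate group from mixture. All 6 tested red blood cell markers and 4 of 5 endothelial markers also rose in AD-HFD versus Sham, while Cldn5, a tight junction gene of brain vessels, was at 0 counts in 10 of 12 libraries. What part these cells have in the Sgk1 values was not tested further.

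Ddit4 encodes REDD1, an inhibitor of the mTORC1 growth pathway induced by glucocorticoids, low oxygen and DNA damage. It stood at 34.2, 40.2, 46.0 and 43.3 CPM across Sham, at 54.1, 60.0, 61.5 and 49.2 CPM across AD, and at 45.3, 62.2, 81.9 and 88.2 CPM in AD-HFD. All AD libraries and 3 of 4 AD-HFD libraries were above the highest Sham library, and AD-HFD-1 lay just within the Sham range. The order of the means was Sham (40.9 ± 5.10 CPM), AD (56.2 ± 5.69 CPM) and AD-HFD (69.4 ± 19.5 CPM; SD, n = 4), and AD and AD-HFD did not differ beyond their spread.

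Ddit4 rose in AD-HFD versus Sham by 0.76 ± 0.197 (1.70-fold, adjusted p = 0.0144). The call was lost without Sham-1 (0.68, adjusted p = 0.0512) and without AD-HFD-3 and AD-HFD-4 together (0.39, adjusted p = 0.115), and with the red blood cell covariate the value was 0.67 (adjusted p = 0.253). In AD versus Sham the difference was 0.46 ± 0.196 (unadjusted p = 0.0377 and adjusted p = 0.180 by edgeR's quasi-likelihood test), and in AD-HFD versus AD 0.30 ± 0.195 (adjusted p = 0.308). Without AD-3 and AD-HFD-3 the AD-HFD versus Sham value was 0.59 (adjusted p = 0.0267). Unlike Sgk1, Ddit4 was high in AD-HFD-3 (81.9 CPM), the library with the least oligodendrocyte and red blood cell marker signal of its group, as well as in AD-HFD-4.

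Tsc22d3 encodes GILZ, a leucine zipper protein that carries part of the anti-inflammatory action of glucocorticoids. It was even in Sham (67.7, 74.4, 79.0 and 82.0 CPM) and uneven in AD (139, 142, 29.5 and 98.4 CPM) and AD-HFD (63.5, 58.4, 35.0 and 88.6 CPM). In AD, 3 libraries were above every Sham library and AD-3 was the lowest of all 12, so that neither AD (102 ± 52.3 CPM) nor AD-HFD (61.4 ± 22.0 CPM) differed from Sham (75.8 ± 6.20 CPM; SD, n = 4) beyond its spread. The log2 fold changes were 0.43 ± 0.395 in AD versus Sham, -0.73 ± 0.396 in AD-HFD versus AD and -0.30 ± 0.395 in AD-HFD versus Sham (adjusted p 0.544, 0.226 and 0.575). Without AD-3, Tsc22d3 was lower in AD-HFD than in AD by -1.04 ± 0.252 (adjusted p = 0.0125). Without AD-3 and AD-HFD-3 it was higher in AD than in Sham by 0.72 (adjusted p = 0.0142) and lower in AD-HFD than in AD by -0.91 (adjusted p = 0.00337). Within AD and within AD-HFD, its order over the libraries was that of the summed oligodendrocyte markers. These were 37700, 46411, 12238 and 17996 CPM in AD-1 to AD-4. In AD the mean log2 CPM of the astrocyte markers had the same order, though their sum did not. In AD-HFD the red blood cell, endothelial, microglia and leptomeninges sums shared it, as for Sgk1. In Sham the orders of Tsc22d3 and the oligodendrocyte markers differed. The order is thus not particular to oligodendrocytes, and their part in the Tsc22d3 values was not tested. With the cortex marker mean as a covariate the sign in AD versus Sham turned (-1.96, adjusted p = 0.00271), and Tsc22d3 was also lower in AD-HFD than in Sham (-1.45, adjusted p = 0.000814). Neither AD nor AD-HFD shared a level of that covariate with Sham, so both values are extrapolated. With the red blood cell mean the AD-HFD versus Sham value was -0.77 (adjusted p = 0.636).

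Klf9 encodes a zinc finger transcription factor induced by glucocorticoids and thyroid hormone that is known for its role in maturing neurons. It was at 87.8, 83.1, 89.3 and 97.2 CPM across Sham, at 87.2, 58.2, 94.7 and 54.8 CPM across AD, and at 44.2, 62.9, 93.2 and 60.9 CPM in AD-HFD. Low values were in AD-2, AD-4 and 3 AD-HFD libraries, while AD-1, AD-3 and AD-HFD-3 lay within the Sham range. The means were, in descending order, Sham (89.3 ± 5.85 CPM), AD (73.7 ± 20.2 CPM) and AD-HFD (65.3 ± 20.4 CPM; SD, n = 4), with log2 fold changes of -0.28 ± 0.231 in AD versus Sham, -0.17 ± 0.231 in AD-HFD versus AD and -0.45 ± 0.232 in AD-HFD versus Sham (adjusted p 0.501, 0.628 and 0.148). Without AD-HFD-3, Klf9 was lower in AD-HFD than in Sham by -0.68 ± 0.211 (adjusted p = 0.0228), and without AD-3 as well by -0.75 (adjusted p = 0.00506). With the cortex marker mean as a covariate, the AD-HFD versus Sham value was -0.09 (adjusted p = 0.773), and with the red blood cell mean -0.24 (adjusted p = 0.784).

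**Figure D2:**
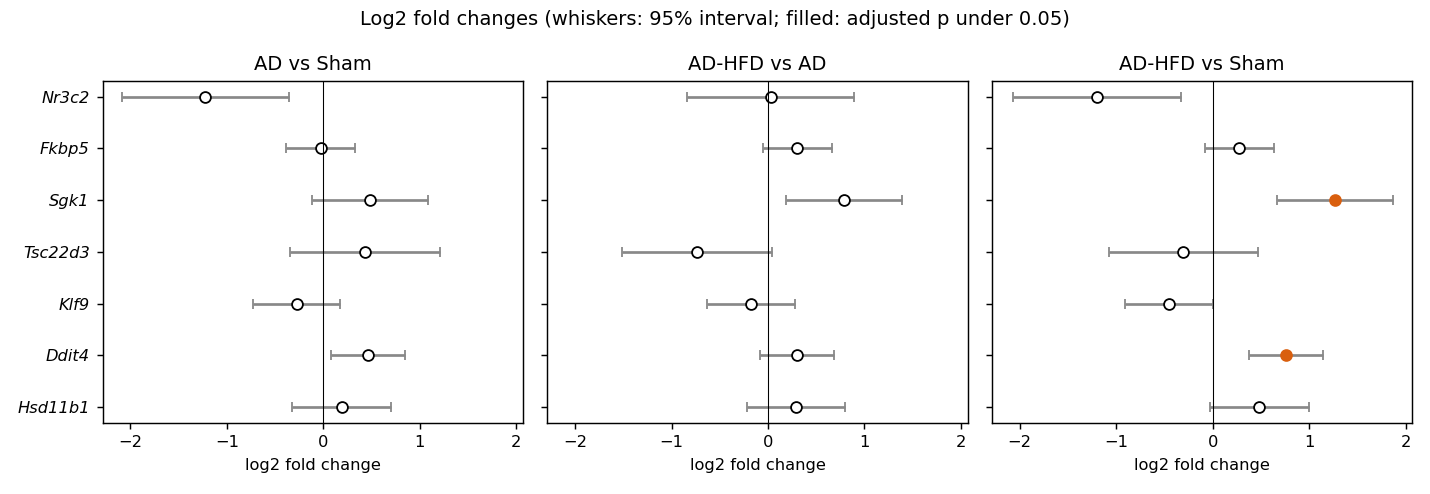
Log2 fold change of each of the 7 genes (x axis) in the 3 comparisons, with whiskers of the 95% interval and filled points where the adjusted p was under 0.05. The 2 filled points are Sgk1 (1.27) and Ddit4 (0.76) in AD-HFD versus Sham.

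**Figure D3:**
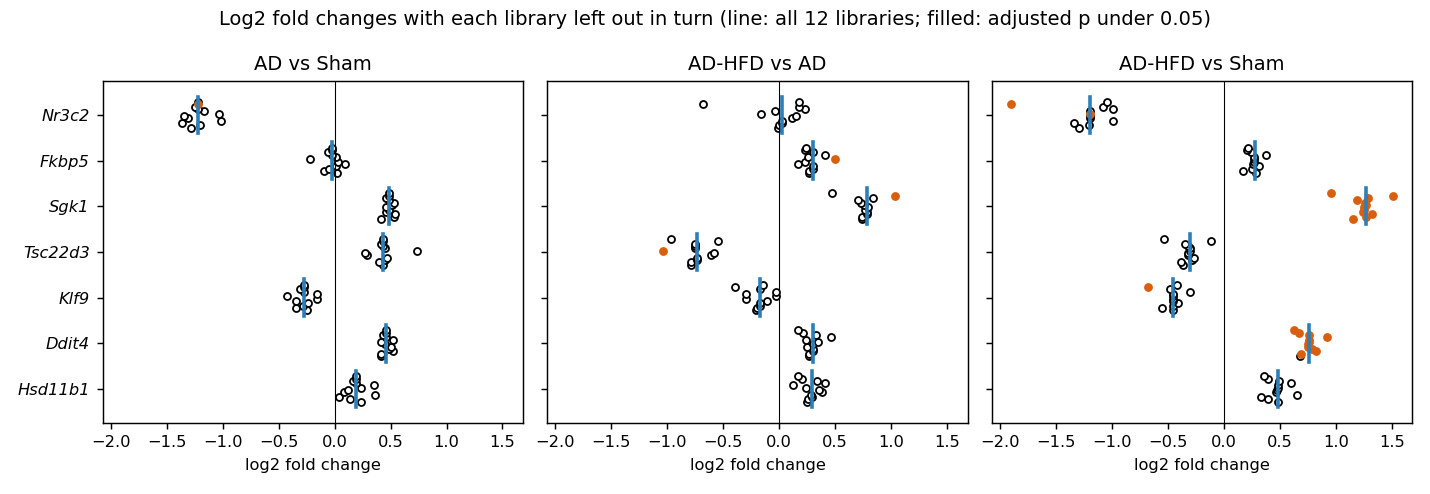
Log2 fold changes (x axis) of the 7 genes with each of the 12 libraries left out in turn, as points, beside the value over all libraries, as a line, with filled points where the adjusted p was under 0.05. Nr3c2 in AD-HFD versus Sham moves to -1.90 without AD-HFD-3, and Tsc22d3 in AD-HFD versus AD moves to -1.04 without AD-3.

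The 7 genes thus did not follow 1 pattern over the libraries. AD-3 was the lowest of all 12 libraries for Tsc22d3 and the highest AD library for Fkbp5 and Ddit4, and AD-HFD-3 was the highest AD-HFD library for Nr3c2, Fkbp5 and Klf9 and the lowest for Sgk1 and Tsc22d3. The share of the variance of log2 CPM that lay between the 3 groups was highest for Ddit4 (59.1%), Sgk1 (53.8%) and Nr3c2 (53.8%), and lowest for Tsc22d3 (13.6%).

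**Figure D4:**
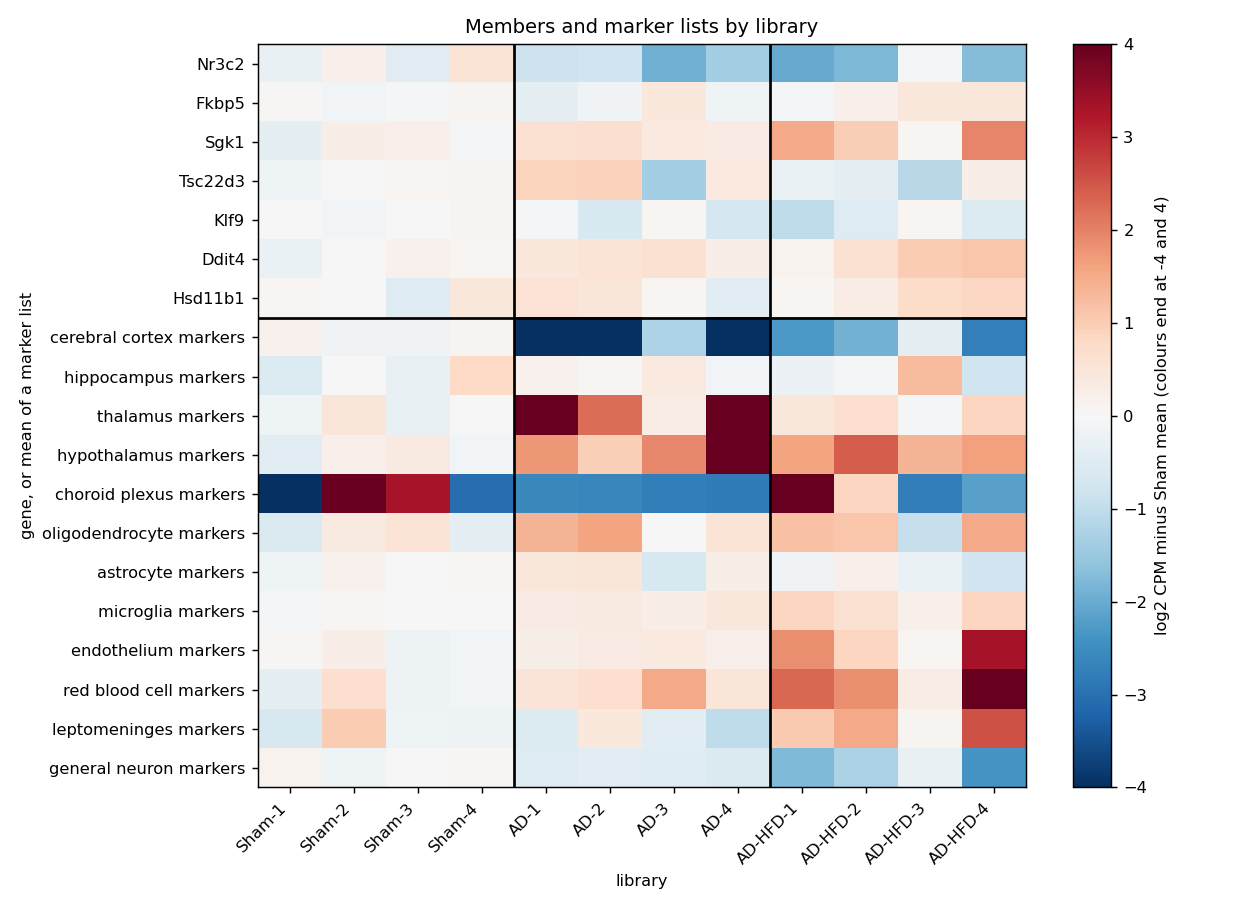
Log2 CPM minus the Sham mean (colour, ending at -4 and 4) for the 7 genes and for the mean of each marker list (rows) in the 12 libraries (columns). AD-3 and AD-HFD-3 keep more of the cortex signal than the other libraries of their groups, and AD-HFD-4 has the strongest red blood cell and endothelial signal.

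The genes whose log2 CPM ran most like each of the 7 over the 12 libraries, among 13146 candidates, are given as a description, since all points share the tissue mixture above. Nr3c2 ran with Dock4 (Pearson r 0.97, Spearman rho 0.93), Rgl1 (0.94 and 0.96) and Jph4 (0.94 and 0.93), the last a junctophilin of neuronal membranes. Sgk1 ran with Magt1 (0.98 and 0.97), Nfatc3 (0.98 and 0.99) and Slfn5 (0.98 and 0.97). For Fkbp5 the nearest were Col5a1 (0.97 and 0.99), a fibrillar collagen chain, Myadm (0.96 and 0.94) and Tbc1d10a (0.96 and 0.92). Tsc22d3 was nearest to Ddt (0.98 and 0.92), Glud1 (0.97 and 0.87), the glutamate dehydrogenase of mitochondria, and Sdsl (0.97 and 0.95). Klf9 was nearest to Pcdhgc3 (0.96 and 0.84), Rprd2 (0.93 and 0.80) and Socs7 (0.93 and 0.93), and Ddit4 to Nr2f6 (0.95 and 0.93), Fzd8 (0.93 and 0.94) and Smad7 (0.92 and 0.96). Hsd11b1 had no gene as close, with Ddx11 (0.83 and 0.85), Tnfrsf25 (0.79 and 0.73) and Mrpl19 (0.78 and 0.76).

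Among 28 further genes known to be induced by glucocorticoids, 6 rose and 0 fell in AD versus Sham, 0 passed in AD-HFD versus AD, and 18 rose and 0 fell in AD-HFD versus Sham. Of all genes, 3.07% rose and 3.16% fell in the first comparison, 0.0106% passed in the second, and 19.7% rose and 12.9% fell in the third. At an unadjusted p under 0.05, 14 of the 28 were higher and 2 lower in AD-HFD versus AD, against 17.1% and 13.4% of all genes. DESeq2 called 8 of the 28 higher and 2 lower there, and 3310 of all 18850 genes, 1761 of them higher. In AD versus Sham 24% of all genes had an unadjusted p under 0.05, and DESeq2 called 2600. Unadjusted and DESeq2 counts of the lists below are to be read against these. The median log2 fold changes of the 28 were 0.94, 0.91 and 1.22, against 0.06, 0.04 and 0.03 over all genes. Many of the 28 also answer to inflammation, low oxygen or fasting. This list and those below were written by hand with earlier results of these data known. Their counts and medians are therefore a description and not an independent test of a glucocorticoid response. Gpd1, the cytosolic glycerol phosphate dehydrogenase of oligodendrocytes, went from 94.4 to 145 CPM in the Sham libraries to 508 to 777 CPM in AD and 509 to 1253 CPM in AD-HFD, with no overlap, and rose by 2.36 ± 0.269 and 2.86 ± 0.274 against Sham (adjusted p 0.00130 and 0.000417). Lcn2, a secreted iron-binding protein of reactive astrocytes, was at 0 to 0.10 CPM across Sham, at 2.83 to 87.0 CPM in AD and at 21.9 to 258 CPM in AD-HFD (9.45 ± 1.43 and 11.8 ± 1.45 against Sham). The cell cycle inhibitor gene Cdkn1a rose by 2.31 ± 0.456 in AD and 3.29 ± 0.472 in AD-HFD versus Sham, from 4.41 to 11.9 CPM in Sham to 56.8 to 104 CPM in AD-HFD.

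Rhob, a small GTPase gene, rose in AD by 0.88 ± 0.183, with 386 to 607 CPM against 233 to 308 CPM in Sham. Angptl4, an inhibitor of lipoprotein lipase that responds to fasting and low oxygen, was at 4.22 to 5.72 CPM across Sham, at 12.6 to 30.3 CPM in AD and at 39.4 to 196 CPM in AD-HFD. It rose by 4.29 ± 0.490 in AD-HFD versus Sham, and with Mertk (0.99 ± 0.233), a receptor for clearing dead cells, had the smallest p of the 28 in AD-HFD versus AD (2.15 ± 0.441, both adjusted p = 0.0605). Not all of the 28 passed against Sham, and 2 well-known targets among the several that did not are described here. Per1, a clock gene, was at 47.1 to 62.0 CPM in Sham and at 36.8 to 73.8 CPM in AD-HFD (0.01, adjusted p = 0.985), and Zbtb16, a zinc finger gene, averaged 16.2 ± 2.54 CPM in Sham (SD, n = 4) and stood at 4.21, 7.52, 19.1 and 4.32 CPM in AD-HFD (-0.88, adjusted p = 0.130). In AD versus Sham, Per1 was -0.46 and Zbtb16 -1.29, the latter with all AD libraries below Sham. Neither passed edgeR's quasi-likelihood test (unadjusted p 0.0434 and 0.0117, adjusted p 0.193 and 0.0972). They were the 2 of the 28 that were lower there at an unadjusted p under 0.05, and 13 were higher, against 10.7% and 13.3% of all genes. Per1 and Zbtb16 were named after their values were seen.

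The counts for the 28 genes moved with single libraries. For AD versus Sham 2 were called without Sham-4 or Sham-1 and 3 without AD-4 or Sham-2. Over all genes those fits called 336, 302, 468 and 529, of 19325, 19299, 19278 and 19275 tested. In AD-HFD versus AD 15 passed when AD-3 was left out and 13 without AD-HFD-3, where 5841 of 19278 and 5321 of 19305 genes passed. Over all genes, calls with 1 library left out ranged over 302 to 2329, 0 to 5841 and 3514 to 8615 in the 3 comparisons. Such counts for the lists below are to be read against these. Without both AD-3 and AD-HFD-3, 11 rose and 1 fell in AD versus Sham, 18 rose and 2 fell in AD-HFD versus AD, and 19 rose and 3 fell in AD-HFD versus Sham, where 3875, 8630 and 10245 of all 19134 genes were called. With the red blood cell mean as a covariate, 4 of 28 were called in AD-HFD versus Sham (Lcn2, Gpd1, Angptl4 and Cdkn1a), with a median of 0.76. Over all 18850 genes that covariate left 208 calls of 6162, so the loss of calls is not particular to this list. Microglia markers, where 5 of 8 rose and 1 fell in AD-HFD versus Sham, moved with this list as well (244 to 275 CPM in Sham and 369 to 582 CPM in AD-HFD), and their part in it was not tested. Leptomeninges markers moved with it too: 5 of 8 rose and 0 fell in AD-HFD versus Sham (median 1.88), 7 of 8 were higher at an unadjusted p under 0.05 in AD-HFD versus AD, and their sum was 70.0 to 515 CPM in Sham, 66.1 to 146 CPM in AD and 164 to 1136 CPM in AD-HFD. Of 5 endothelial markers, 4 rose in AD-HFD versus Sham, with sums of 136 to 192 CPM in Sham and 184 to 1478 CPM in AD-HFD. The part of either cell type in the induced genes was not tested. Angptl4 was 2.79 in AD-HFD versus Sham with the red blood cell covariate (adjusted p = 0.00395). Gjb6 stands in both the induced list and the astrocyte marker list.

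**Figure D5:**
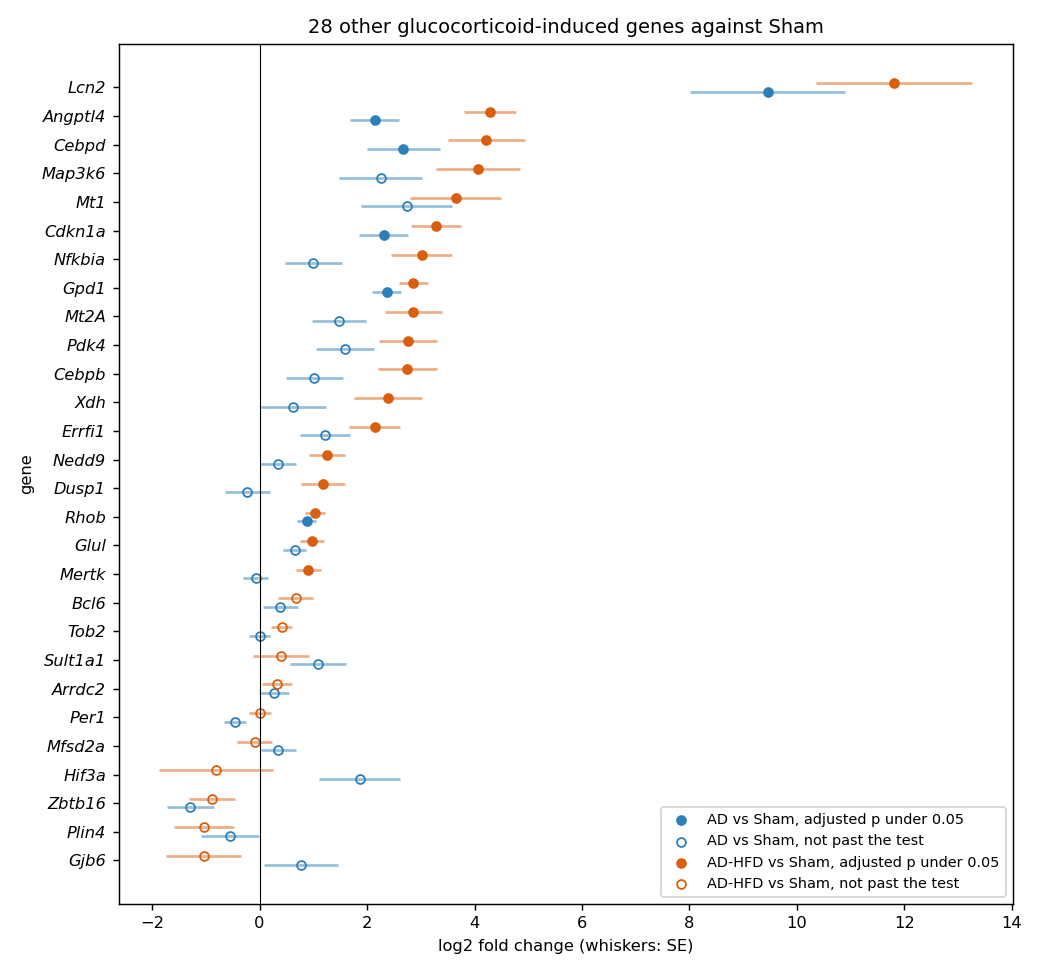
Log2 fold change against Sham (x axis, whiskers of 1 SE) of 28 further glucocorticoid-induced genes (rows) in AD (blue) and AD-HFD (orange), filled where the adjusted p was under 0.05. In AD-HFD 18 points are filled, all to the right of 0, and Zbtb16, Plin4 and Gjb6 are among those left of 0 and not past the test.

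The chaperones that hold the receptor ready for hormone were measured as 12 genes. None passed in AD versus Sham (2 had an unadjusted p under 0.05, and DESeq2 called 2) or in AD-HFD versus AD (3 unadjusted, 2 by DESeq2), and 5 rose and 1 fell in AD-HFD versus Sham, with medians of 0.16, 0.22 and 0.30. Over all genes 6.23%, 0.0106% and 32.7% passed in the 3 comparisons (19.7% higher and 12.9% lower in the last). The nucleotide exchange factor gene Bag1 rose from 37.5 to 43.4 CPM in Sham to 56.7 to 109 CPM in AD-HFD (0.97 ± 0.194), and it had the smallest p of the list in AD versus Sham (0.64 ± 0.193, adjusted p = 0.0722), ahead of Stip1, the HSP70 and HSP90 linker gene (0.39 ± 0.136, adjusted p = 0.110). The DnaJ co-chaperone gene Dnajb1 rose by 0.80 ± 0.162, from 67.3 to 80.4 CPM to 98.2 to 154 CPM. Ptges3, which encodes the p23 co-chaperone, rose by 0.73 ± 0.172, and Hsp90aa1, the stress-inducible HSP90 gene, by 0.69 ± 0.178, from 905 to 1043 CPM in Sham to 1239 to 2085 CPM in AD-HFD. In AD-HFD versus AD the smallest p were those of Dnajb1 (0.68 ± 0.162, adjusted p = 0.0605) and Ptges3 (0.49 ± 0.172, adjusted p = 0.0908). The fall was in Ppp5c, a protein phosphatase of the receptor complex (-0.49 ± 0.140, adjusted p = 0.0212), which was named after its values were seen. With the red blood cell covariate 0 of the 12 were called in AD-HFD versus Sham, against 208 of all 18850 genes. Values there were 0.41 for Bag1, 0.52 for Dnajb1, 0.40 for Ptges3 and -0.24 for Ppp5c. The call of Ppp5c was also lost without AD-HFD-4 or AD-HFD-1, and without any 1 Sham library except Sham-2. Without AD-3, 2 of the 12 were called in AD-HFD versus AD (5841 of 19278 over all genes), and without AD-HFD-3, 3 (5321 of 19305). In AD versus Sham 1 was called without AD-HFD-3 or without AD-HFD-4 (2270 of 19305 and 1799 of 19255 over all genes). Leaving out AD-3 and AD-HFD-3 gave 2 rises and 0 falls, 2 and 1, and 5 and 1 in the 3 comparisons.

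Of 9 receptor coregulators, 1 fell in AD versus Sham, 0 passed in AD-HFD versus AD (0 at an unadjusted p under 0.05 and 0 by DESeq2), and 2 fell in AD-HFD versus Sham, with medians of -0.16, 0.11 and 0.05. Of all genes 3.16%, 0% and 12.9% fell and 3.07%, 0.0106% and 19.7% rose, so 2 of 9 in AD-HFD versus Sham is a share below the 32.7% called over all genes. The corepressor gene Ncor1 fell by 0.67 on the log2 scale in AD (SE 0.168, adjusted p = 0.0392) and by 0.54 in AD-HFD (SE 0.168), from 137 to 171 CPM in Sham to 76.4 to 115 CPM in AD and 89.6 to 139 CPM in AD-HFD. The coactivator gene Ncoa1 fell by 0.81 in AD-HFD (SE 0.239), from 139 to 172 CPM in Sham to 57.3 to 145 CPM. In AD-HFD versus AD the smallest p were those of the coactivator genes Ncoa3 (0.32 ± 0.149, adjusted p = 0.171) and Med1 (0.26 ± 0.141, adjusted p = 0.221). General neuron markers fell alongside in AD-HFD versus Sham (5 of 8, with 0 rises), summing to 8164 to 10372 CPM in Sham and to 2590, 3315, 7179 and 1669 CPM over AD-HFD-1 to AD-HFD-4. Ncoa1 and these markers were both highest in AD-HFD-3 and lowest in AD-HFD-4 within that group, and the part of neurons in the Ncoa1 and Ncor1 values was not tested. The AD-HFD versus Sham values with the red blood cell covariate were -0.25 for Ncoa1 (adjusted p = 0.635) and -0.30 for Ncor1 (adjusted p = 0.555). The call of Ncor1 in AD was lost without any 1 of the 4 Sham libraries or of AD-2, AD-1, AD-4 and AD-HFD-2 (0 of 9 called in each), and 2 of the 9 were called without AD-HFD-3. In AD-HFD versus Sham none was called without Sham-1, Sham-4, AD-HFD-2 or AD-HFD-4, 1 without AD-HFD-1 and 4 without AD-HFD-3. In AD-HFD versus AD, 2 were called without AD-HFD-3. Over all 19305 genes, leaving out AD-HFD-3 gave 8615 calls in AD-HFD versus Sham and 5321 in AD-HFD versus AD. With AD-3 and AD-HFD-3 both left out, 0 rose and 3 fell, 0 rose and 2 fell, and 1 rose and 4 fell.

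Genes of corticosteroid synthesis, inactivation and transport (8 tested) gave 0 calls in AD versus Sham and 0 in AD-HFD versus AD (2 and 1 at an unadjusted p under 0.05, and 1 and 1 by DESeq2), and 4 rises and 1 fall in AD-HFD versus Sham, with medians of 0.17, 0.47 and 0.90. Over all genes 6.23%, 0.0106% and 32.7% passed (19.7% higher and 12.9% lower in the last). H6pd, which supplies the cofactor for the Hsd11b1 enzyme, rose in AD-HFD by 0.88 ± 0.265, from 6.06 to 7.22 CPM in Sham to 7.35 to 18.1 CPM. Its call was lost without any 1 of the 4 Sham libraries, AD-HFD-2 or AD-HFD-4, and with the red blood cell covariate its value was 0.15 (adjusted p = 0.843). Hsd11b2, the enzyme that inactivates glucocorticoid, was at 0.13 to 0.37 CPM in Sham and 0.44 to 1.02 CPM in AD-HFD (1.96 ± 0.530), and in AD versus Sham it had the smallest p of the list (1.66 ± 0.547, adjusted p = 0.0901), ahead of Srd5a1 (0.82 ± 0.301, adjusted p = 0.124). Akr1c14, a hydroxysteroid dehydrogenase of neurosteroid synthesis, rose by 2.25 ± 0.566 against Sham, from 1.56 to 3.39 CPM to 6.80, 6.63, 2.94 and 25.9 CPM over AD-HFD-1 to AD-HFD-4. It had the smallest p of the list in AD-HFD versus AD (2.62 ± 0.581, adjusted p = 0.0605), ahead of H6pd (0.57 ± 0.262, adjusted p = 0.166). Without AD-HFD-4 the AD-HFD versus Sham value of Akr1c14 was 1.30, and with the red blood cell covariate it was 0.20 (adjusted p = 0.852).

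Srd5a1, the steroid 5-alpha reductase, rose in AD-HFD by 0.93 ± 0.302, from 24.3 to 39.8 CPM in Sham to 32.5 to 93.9 CPM. It was 0.57 without AD-HFD-2, and the call was lost there (adjusted p = 0.138) as well as without Sham-1, Sham-2, Sham-4 or AD-HFD-1. Cyp11a1, the first enzyme of steroid synthesis, fell in AD-HFD at levels of 0.44 to 0.64 CPM in Sham and 0 to 0.19 CPM in AD-HFD, and was not called by DESeq2 (adjusted p = 0.0983). It is the fifth of this list by p, was named after its values were seen, and its call was lost without any 1 of the 4 Sham libraries, AD-HFD-1, AD-HFD-3 or AD-HFD-4. The count of 5 steroid genes called in AD-HFD versus Sham was 1 without Sham-4 or Sham-1, 2 without Sham-2, and 3 without Sham-3, AD-HFD-1, AD-HFD-2 or AD-HFD-4. In AD-HFD versus AD leaving out AD-HFD-3 gave 2 and leaving out AD-3 gave 1, and in AD versus Sham 1 without AD-3. Over all genes these fits called 5321 of 19305, 5841 of 19278 and 2329 of 19278. Leaving out AD-3 and AD-HFD-3 together gave 2, 2 and 5 rises and 0, 0 and 1 falls.

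The peptides and receptors of the stress hormone axis (9 tested) gave 1 rise in AD versus Sham, 0 calls in AD-HFD versus AD (2 lower at an unadjusted p under 0.05, 0 by DESeq2) and 1 rise in AD-HFD versus Sham, with medians of 0.92, -0.32 and 0.60. Of all genes 3.07%, 0.0106% and 19.7% rose, so 1 of 9 in AD-HFD versus Sham is a share below that over all genes. Avp, the vasopressin gene, was at 0.10 to 0.35 CPM in Sham and at 0.83, 0.82, 3.97 and 261 CPM in AD-1 to AD-4, so its rise in AD (8.40 ± 1.97, adjusted p = 0.0277) was 3.26 without AD-4, the library with 1626 CPM of hypothalamus markers against 1.75 to 5.41 CPM in Sham. Ucn2, the urocortin 2 gene, had 0 counts in Sham and 306 in AD-HFD, at least 103-fold higher when Sham is set to 3 counts in total, and was at 3.29, 3.35, 1.66 and 1.60 CPM in AD-HFD. The medians are the same with Ucn2 at that bound. In AD, Ucn2 had 171 counts, at 0, 0.12, 2.77 and 2.79 CPM in AD-1 to AD-4. Its AD-HFD versus AD value was 0.81 ± 0.872 (adjusted p = 0.5525), so it was not particular to the diet group. Ucn, the urocortin gene, had the second smallest p in AD-HFD versus AD (-2.52, adjusted p = 0.0854) after Avp (-4.58, adjusted p = 0.0784). Ucn had 12, 73, 12 and 0 counts in AD-1 to AD-4 (0.42, 2.13, 0.37 and 0 CPM), against 0 to 10 counts in each AD-HFD library and 0 to 4 in each Sham library, so most of its AD counts came from AD-2. In AD versus Sham 0 were called without any 1 Sham library, 2 without AD-1 or AD-4 and 3 without AD-3. In AD-HFD versus AD 3 were called without AD-3, and in AD-HFD versus Sham 2 without AD-4 or AD-HFD-3. Over all 19278 genes, leaving out AD-3 gave 2329 calls in AD versus Sham and 5841 in AD-HFD versus AD. Leaving out both AD-3 and AD-HFD-3 gave 2 rises and 1 fall, 1 and 2, and 1 and 1.

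Relatives of the 7 genes by family (14 tested) gave 2 rises and 1 fall in AD versus Sham, 0 calls in AD-HFD versus AD (4 higher at an unadjusted p under 0.05, 2 by DESeq2), and 4 rises and 1 fall in AD-HFD versus Sham, with medians of 0.14, 0.24 and 0.17. Over all genes 6.23%, 0.0106% and 32.7% passed, so 5 of 14 in AD-HFD versus Sham is close to the background. Tsc22d4, of the same family as Tsc22d3, was at 22.4 to 31.6 CPM in Sham, 44.5 to 54.2 CPM in AD and 37.5 to 70.8 CPM in AD-HFD, without overlap (0.86 ± 0.192 and 0.87 ± 0.192 against Sham). Tsc22d2 rose in AD-HFD by 1.03 ± 0.206, and its AD-HFD versus AD value was 0.65 ± 0.204 (adjusted p = 0.0737). Klf4, a zinc finger gene of the same family as Klf9 that responds to shear stress in endothelium, was at 4.63 to 6.13 CPM in Sham and at 37.2, 37.8, 14.5 and 95.4 CPM over AD-HFD-1 to AD-HFD-4 (3.08 ± 0.501). It had the smallest p of the list in AD-HFD versus AD (1.999 ± 0.476, adjusted p = 0.0605). Klf16 fell in AD by 1.31 (SE 0.314). With the red blood cell covariate 0 of the 14 were called in AD-HFD versus Sham, against 208 of all 18850 genes. Klf4 was 1.32 there (adjusted p = 0.0618) and Tsc22d2 0.58 (adjusted p = 0.217).

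Among the other steroid receptors, Esr1, the oestrogen receptor alpha gene, rose by 1.56 ± 0.424 in AD (adjusted p = 0.0498) and by 2.09 ± 0.418 in AD-HFD, from 0.65 to 1.27 CPM in Sham. Pgr, the progesterone receptor gene, fell by 1.44 in AD-HFD (SE 0.423), from 9.84 to 13.4 CPM in Sham to 5.19, 2.45, 8.07 and 1.33 CPM in AD-HFD. Like Nr3c2, Pgr was highest within AD-HFD in AD-HFD-3. It is the fifth of the list by p and was named after its values were seen. Pgr was -0.38 with the red blood cell covariate (adjusted p = 0.681), and its call was lost without Sham-1, Sham-4 or AD-HFD-2. For AD versus Sham, 0 of the 14 relatives were called without AD-4 or any 1 Sham library, and 1 without AD-2 or AD-1. In AD-HFD versus AD 4 passed when AD-3 was left out and 2 without AD-HFD-3, where 5841 of 19278 and 5321 of 19305 genes passed. With AD-3 and AD-HFD-3 both left out, rises and falls were 2 and 1, 2 and 3, and 4 and 4.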

How the data were processed

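Raw counts per gene for 12 brain libraries were deposited by the authors in 1 table, with totals from 26668974 (AD-4) to 35351792 (Sham-1). FastQC and Trimmomatic appear in the submitters' processing notes. The sources used here do not name the aligner, counter, strand setting, genome build or annotation, and genes that overlap on opposite strands, or share reads with close copies such as the metallothionein and haemoglobin genes, are uncertain. Rows of unnamed new loci (2.24% to 3.29% of counts) stayed in. All count columns were used.

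In R 4.3.3, edgeR 4.0.16 kept 18850 rows by filterByExpr, scaled libraries by TMM and fitted 1 mean per group over all 12 libraries (quasi-likelihood, non-legacy method), with Benjamini-Hochberg adjustment over all rows. Intervals of 95% are the value ± 1.96 SE. Likeness used genes of at least 1 CPM, with a prior count of 2. The 6 pathway lists were written out by hand. Named genes were all 7 members, up to 4 genes per list and comparison with the smallest p among those that passed (2 where none did), and the 3 nearest in likeness. Per1, Zbtb16, Ppp5c, Cyp11a1 and Pgr fall outside that rule and were named after their values were seen. The members and lists were chosen with earlier results of these data known, and the TATA and GC letters after the promoters were read. Alternatives included DESeq2 1.42.0, limma voom (limma 3.58.1), other scalings and filters, marker covariates and leaving out libraries. The labels do not say that samples were separate animals, so the p-values cover only spread among these samples. Same-numbered libraries deviated together with r from -0.317 to 0.095, so the numbers were not taken to pair samples. No library pair agreed within sampling noise (lowest chi-square per degree of freedom 18.7). Tested on simulated counts with 100 genes changed 4-fold and 100 changed 2-fold, the fit recovered 71 and 20 for AD versus Sham (18515 genes), 69 and 8 for AD-HFD versus AD (18472 genes), and 69 and 15 for AD-HFD versus Sham (18527 genes), and 4.21%, 7.23% and 8.70% of the calls were unchanged genes.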

Additional observations from a re-analysis of the deposited data

Results flagged for a closer look

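Of 21 combinations of gene and group of 4 libraries checked for a library far from the others, 1 stood out. Nr3c2 in AD-HFD-3 was at 19.7 CPM, against 4.96 to 6.09 CPM in the other AD-HFD libraries, and the gap was 0.924 of the group's range (Dixon's critical value 0.829). Chance alone flags about 1 in 20 such groups.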

How the results depend on the processing

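The number of the 7 genes called was 0, 0 and 2 (AD versus Sham, AD-HFD versus AD, AD-HFD versus Sham). It ranged over 0 to 1, 0 to 2 and 1 to 4 with 1 library left out. In AD versus Sham it was 2 in a fit of the compared groups only (Nr3c2 and Ddit4) and 1 with the cortex covariate. Over all genes those fits called 2363 of 18014 and 1417 of 18850. Without AD-HFD-3 and AD-HFD-4 it was 1 in both AD versus Sham and AD-HFD versus AD. Over all genes that fit called 2801 and 1896 of 19824. The red blood cell covariate gave 0 in AD-HFD versus Sham, where 208 of all 18850 genes were called. Without AD-3 and AD-HFD-3, added after the data were seen, the numbers were 2, 3 and 4. The replicate block gave 0, 0 and 2, and changed no call of these genes. In AD-HFD versus Sham no sign turned under the 27 alternatives run.

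Other signs turned as follows, and the cause was not tested. In AD-HFD versus AD, Nr3c2 (0.03) ranged from -0.68 to 0.23 with 1 library left out and was -0.0085 by DESeq2, -0.15 by voom, -0.0070 with RLE scaling, -0.0019 without a filter, -0.087 with the replicate block, -0.0091 in the compared groups only, -0.74 without AD-HFD-3 and AD-HFD-4, -0.24 with the cortex covariate and -0.93 without AD-3 and AD-HFD-3. In AD versus Sham, Fkbp5 ranged from -0.22 to 0.093 with 1 library left out. With AD-3 as the only AD library (assumed to vary like the others), AD versus Sham was 0.42 for Fkbp5, -1.37 for Tsc22d3 and 0.076 for Klf9, and AD-HFD versus AD was -0.16 for Fkbp5 and 1.05 for Tsc22d3. With the cortex covariate, AD versus Sham was 0.51 for Fkbp5, -0.32 for Sgk1, -1.96 for Tsc22d3 and 0.50 for Klf9, and AD-HFD versus AD 0.51 for Tsc22d3. Without AD-HFD-3 and AD-HFD-4, AD-HFD versus AD was -0.064 for Ddit4 and -0.041 for Hsd11b1.

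Over all genes, the 1174, 2 and 6162 calls became 2600 and 3310 in the first 2 comparisons by DESeq2 and 3875, 8630 and 10245 without AD-3 and AD-HFD-3. With 1 library left out they ranged over 302 to 2329, 0 to 5841 and 3514 to 8615. The red blood cell covariate left 208 in the last, the cortex covariate gave 153 in the second, and the replicate block gave 851, 5 and 5156. At this depth and spread, most simulated 2-fold changes were not recovered, so a difference of that size can go uncalled.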
